A study of Rattus norvegicus with 12 samples.

Results

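The 4 arrays of hippocampal neuron RNA labelled 60 min were compared with the 4 arrays labelled 30 min, each 60 min array being matched to the 30 min array of the same activity state and the same actinomycin D treatment. Of 9600 spots on each array, 7300 carried 1 gene symbol and had a mean log2 intensity above 5 over all 12 arrays of the series, and these spots, which cover 5545 genes, are described. Around that minimum, the spots just above it had changes of 0.14 (MRPS6), -1.32 (BIN3) and 0.14 (SMU1), and those just below it had changes of -0.49 (NKIRAS1), 0.34 (SRP54) and 0.34 (MIEF1), on the scale explained below.

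The cultures came from Sprague Dawley rat embryos of embryonic day 18.5, were grown on a layer of glia for 12 days, and were all kept silent beforehand for 3 h. The silencing mixture held 2 antagonists of glutamate receptors, D-APV at 50 µM and CNQX at 40 µM, together with the sodium channel toxin TTX at 100 nM. The cultures then remained in that state (Block) or were made active (BiC/4AP) with 50 µM of bicuculline, an antagonist of GABA-A receptors, and 500 µM of the potassium channel inhibitor 4-aminopyridine. Each state was prepared without and with actinomycin D (ActD) at 25 µM. The labels give 30 and 60 min as the length of treatment, whereas the methods describe a short stimulus followed by a wait, so a time here is the time in the labels. Each of the 8 conditions was measured on 1 nylon membrane of human cDNA clones hybridised with radioactive cDNA from 3 pooled coverslips.

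Neuronal activity switches on immediate early genes, many of which encode transcription factors such as the Fos and Jun proteins and whose RNA is made within minutes and degraded soon after. Actinomycin D stops RNA polymerases, so under it an RNA can only persist or decay. Messages for ribosomal proteins, actin and glycolytic enzymes are abundant and long-lived in most cells. In RNA from whole cultures, fewer cells of a type and less RNA per cell cannot be told apart.

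Intensity was compared on a scaled log2 scale, in which the log2 values of each array were set to mean 0 and to the average spread of all arrays. A change of 1 is thus close to a doubling in relative level only for spots near the array mean. Far from the mean it departs from a raw log2 change, since arrays differed in spread. The very bright spot of NDUFB6 read 28387 to 31237 at 30 min and 26650 to 28836 at 60 min, with a scaled change of -0.79. Median raw intensity was between 52.6 and 80.9 on the 8 arrays, and the SD of log2 intensity was 2.07 to 2.15 on the 30 min arrays and 2.25 to 2.30 on the 60 min arrays. Levels of the named spots correlated across spots at 0.969 to 0.983 between arrays of 30 min, at 0.974 to 0.987 between arrays of 60 min and at 0.951 to 0.982 between the times (Pearson, 7300 spots, as a description). The arrays are numbered 73 to 76 at 30 min and 77 to 80 at 60 min, so the run of arrays and the time cannot be told apart in any value below. Of 18 neuronal markers 10 were measured, among them SNAP25, STMN2, GAP43 and TUBB3, and 5 of 14 astrocyte markers were measured, among them GFAP. SYN1, MAP2, RBFOX3 and other markers were not among the named spots above the minimum.

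Across the 4 matched pairs, 263 of the 7300 named spots rose from 30 to 60 min and 2 fell, at an adjusted p below 0.05 (limma, all 12 arrays, matched set as a block, Benjamini-Hochberg over 9600 spots). Over all 9600 spots on the array the shares were 3.03% higher and 0.115% lower. The spots that rose belonged to 258 genes, and their changes ran from 0.51 to 1.93 with a median of 1.08. The set held genes of RNA processing (LAS1L, RTCB, SLU7), chromatin (KANSL2, CTCF), protein quality control (UBE2J1, PSMD3), mitochondria (MRPL15, NDUFS1) and membrane traffic (STX10, COPZ1), and no theme was tested. The count rested on the pairs: without the Block pair, the Block + ActD pair or the BiC/4AP + ActD pair it was 0, and without the BiC/4AP pair it was 213 (212 higher and 1 lower), of which 202 were among the 265. With those 3 pairs left out in turn, limma gave 764, 795 and 1315 named spots at an unadjusted p below 0.05. Without the 5 min arrays, which add to the estimate of the spread, 107 spots rose and none fell. The near absence of lower spots also depended on the setting, since 394 rose and 51 fell without the block for the matched set, 395 and 58 with only named spots fitted, 416 and 63 with the 10th percentile added and 375 and 37 with an intensity trend and robust variances.

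**Figure D1:**
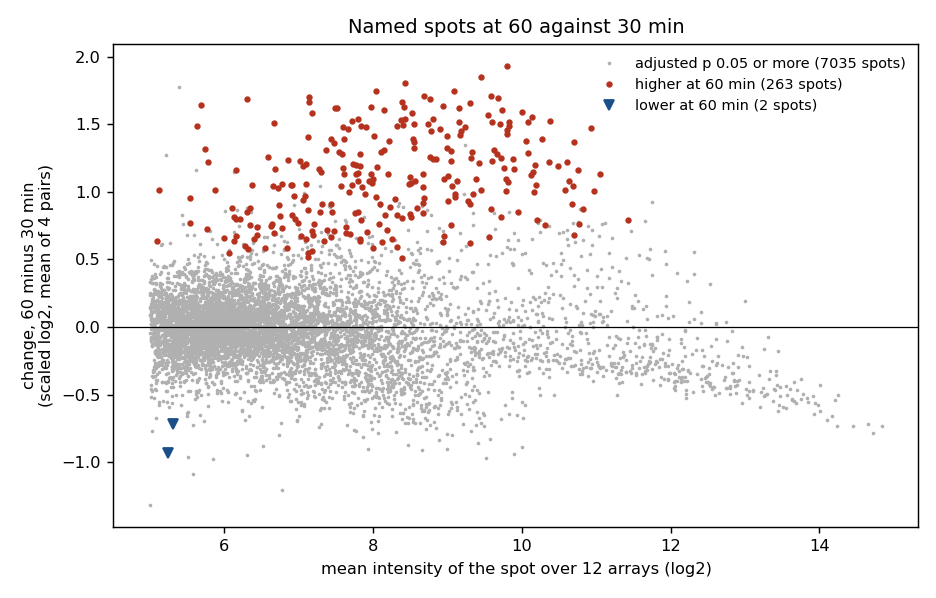
Change from 30 to 60 min (scaled log2, mean of 4 pairs) of 7300 named spots against their mean intensity (log2); red points mark the 263 spots that rose and blue triangles the 2 that fell at an adjusted p below 0.05. The red points lie between 0.51 and 1.93, and the brightest spots slope below 0.

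The spot of PTPN2, a tyrosine phosphatase that dampens cytokine signalling, had raw intensities of 72.5 in Block, 71.4 in Block + ActD, 80.6 in BiC/4AP and 79.3 in BiC/4AP + ActD on the 30 min arrays. On the 60 min arrays, listed in that order here and below, they were 239, 276, 214 and 161. Every 60 min value lay above every 30 min value, and the scaled level rose 2.64-fold (SE of the log2 change 0.14, n = 4 pairs, limma adjusted p = 0.00584). LAS1L, a protein needed to process ribosomal RNA precursors, read 104, 109, 121 and 93.8 at 30 min and 327, 381, 330 and 231 at 60 min, a change of 1.39 (SE 0.14). KANSL2, a subunit of a histone acetyltransferase complex, read 71.4, 59.6, 72.8 and 86.0 at 30 min and 249, 318, 227 and 169 at 60 min, a change of 1.58 (SE 0.17). In these spots the 30 min arrays differed little from each other, while among the 60 min arrays the BiC/4AP + ActD array was the lowest. PTPN2, LAS1L and KANSL2 have 2 named spots each. With the spots of a gene averaged before the fit, a setting chosen after seeing the data, their changes were smaller, at 0.67, 0.79 and 0.77.

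LDHB, which encodes a subunit of lactate dehydrogenase, read 109, 116, 122 and 136 at 30 min and 405, 494, 357 and 291 at 60 min, a change of 1.48 (SE 0.16). CTCF, the insulator protein that shapes chromatin loops, was dim at 30 min, at 42.9, 35.2, 44.8 and 29.7, and read 154, 143, 116 and 99.1 at 60 min, a change of 1.69 (SE 0.18). USP3, a deubiquitinase of histones, read 120, 113, 130 and 125 at 30 min and 675, 505, 410 and 348 at 60 min, a change of 1.75 (SE 0.19). Its Block array at 60 min stood above the other 60 min arrays, and the groups did not overlap in any of these spots. The adjusted p was 0.00584 for each of the 15 named spots with the strongest evidence.

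The other 9 of these 15 behaved alike, with scaled changes from 1.18 to 1.71. Among them were SHD (1.54), an adaptor protein with an SH2 domain, STX10 (1.41), a membrane fusion protein of the Golgi, ZNF219 (1.18), a zinc finger protein, MSLN (1.71), a cell surface protein, and ERH (1.37), a small nuclear protein. COPZ1 (1.42) is a coat protein of Golgi vesicles, RTCB (1.63) is the ligase that joins tRNA exons, and UBE2J1 (1.32) is a ubiquitin-conjugating enzyme of the endoplasmic reticulum. COPZ1 read 276, 242, 312 and 286 at 30 min and 1068, 1024, 852 and 703 at 60 min. UBE2J1 read 34.3, 28.2, 29.9 and 35.8 at 30 min and 70.6, 115, 84.6 and 61.3 at 60 min. Among these 9 the scaled levels at 60 min all lay above those at 30 min, as they did in 7.4% of all 9600 spots. The 15 spots were picked by smallest p and the same sign in 4 of 4 pairs, so their lack of overlap follows largely from the choice. RTCB has 3 spots, and averaged over them its change was 0.60.

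**Figure D2:**
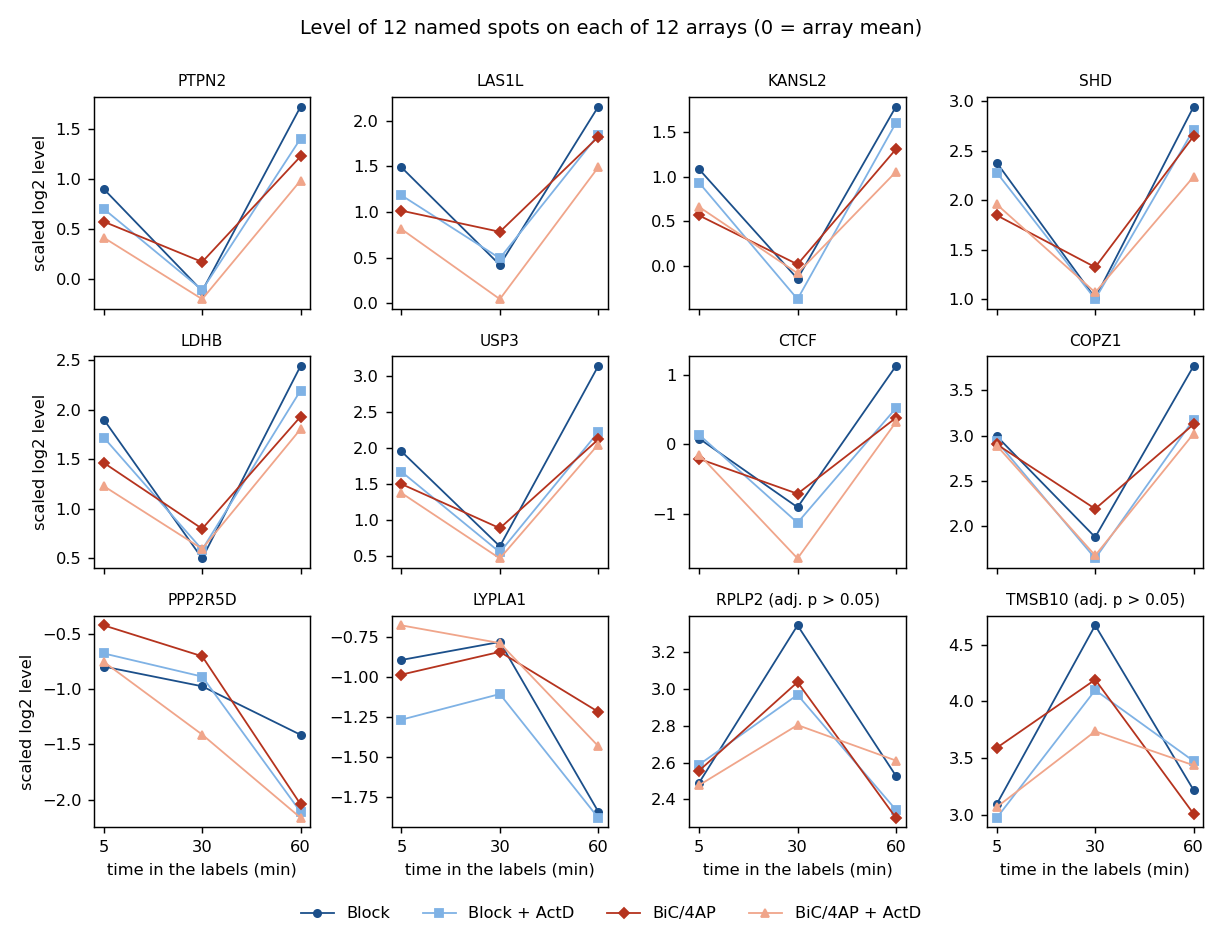
Scaled log2 level (0 is the mean of the array) of 12 named spots on each of 12 arrays against the time in the labels (5, 30 and 60 min), with 1 line per matched set. The 8 spots in the upper rows were low at 30 min and high at 60 min in all 4 sets, PPP2R5D and LYPLA1 were lower at 60 than at 30 min, and RPLP2 and TMSB10, which did not pass the threshold, also lay lower at 60 min.

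The 2 named spots that fell were both dim. PPP2R5D, a regulatory subunit of protein phosphatase 2A, read 41.0, 41.7, 45.0 and 34.8 at 30 min and 23.9, 20.4, 19.8 and 16.4 at 60 min, a change of -0.93 (SE 0.18, limma adjusted p = 0.0243). LYPLA1, which removes palmitate from proteins, read 46.7, 35.8, 41.0 and 53.2 at 30 min and 17.5, 24.1, 36.0 and 27.8 at 60 min, a change of -0.71 (SE 0.14, adjusted p = 0.0260). The scaled levels of the 30 and 60 min arrays did not overlap in either spot, as in 3.79% of all spots in this direction. Spots on the lower side were picked in the same way, so this too follows largely from the choice. The 2 other spots of PPP2R5D also had changes below 0, and LYPLA1 has no other spot above the minimum.

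The next 13 spots in order of evidence on the lower side did not pass, with adjusted p from 0.0533 to 0.0731. Among them, RPLP2 (-0.59), RPL8 (-0.48), RPL35 (-0.68) and RPL36 (-0.71) encode ribosomal proteins, TMSB10 (-0.89) encodes a thymosin that binds actin monomers, and DDX21 (-0.56) and DHX38 (-0.43) encode RNA helicases. TMSB10 read 1776, 1323, 1183 and 1160 at 30 min and 715, 1275, 783 and 949 at 60 min. RPLP2 read 733, 604, 547 and 614 at 30 min and 431, 552, 467 and 522 at 60 min. The raw intensity of TMSB10 at 60 min with Block + ActD lay within the range of the 30 min arrays, and on the scaled levels the times did not overlap in either spot. The 2 other spots of RPL8 had changes of 0.55 and 0.40. The remaining members of the 13 were MLLT11 (-0.59), IGHM (-0.53), ACP2 (-0.52), OVOL2 (-0.58), GPN2 (-0.41) and SLX1A-SULT1A3 (-0.48).

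Counts that need no test were also weighted to the higher side. The change had the same sign in 4 of 4 pairs for 1012 named spots above 0 and 748 below 0, where 12.2% and 10.1% of all 9600 spots did so. All scaled values at 60 min lay above all those at 30 min for 633 named spots and below them for 298, against 7.4% and 3.79% of all spots. A change of at least 1 was seen in 165 named spots and a change of -1 or less in 3, while the median change of the 7300 was -0.01. At an unadjusted p below 0.05 there were 758 higher and 538 lower, where 365 in all would be called by chance at that level, and the median 95% interval reached 0.35 to either side of the change. The methods use a z-fold with a limit of 1.4 and give no formula, and it was taken here as the difference of z-scores divided by its SD over all spots. It was beyond 1.4 in all 4 pairs for 86 named spots higher and 0 lower (0.948% and 0.0417% of all spots). PPCDC, an enzyme of coenzyme A synthesis, DHDDS, an enzyme of dolichol synthesis, NDUFS1, a subunit of respiratory complex I, MAD1L1, a spindle checkpoint protein, and YJU2B led this count, with a z-fold of at least 2.22 in every pair. Taken as the plain difference of z-scores, it was beyond 1.4 in all 4 pairs for 0 named spots.

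The 263 spots that rose were brighter than the rest. Their median intensity was 8.15 on the log2 scale against 6.54 for all named spots, and none had a value of exactly 10, the most frequent value on the arrays. The share called higher was 0.47% among spots of mean log2 intensity 5 to 6, 1.82% from 6 to 7, 5.68% from 7 to 8, 8.83% from 8 to 9, 16.3% from 9 to 10 and 5.23% above 10. Relative to its own mean over all 12 arrays, the median spot of the set stood at 0.10 at 5 min, -0.61 at 30 min and 0.51 at 60 min, so the 30 min arrays were the low ones and the 5 min arrays lay between. The 30 min arrays enter both differences and the set was chosen from them, so these levels are a description.

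Place in the list of spots and the clone also went with the call. Place here is order in the list, taken in blocks of 25. At the same place in the next block to a spot that rose, 13.5% of named spots rose too, and in the previous block 14.6%. Of the next spots in the list 5.14% rose, and of the previous spots 5.34%. The 2 directions count the same pairs of spots that rose, 29 across blocks and 11 along the list, so the second share is no further observation. By place within a block the share ran from 0.594% (position 1) to 9.38% (position 18), and it was highest, at 7.48%, in the last of 16 rows of 24 blocks. Of the 258 genes, 99 had more than 1 named spot. Their 180 spots that did not themselves rise at the threshold had a median change of -0.02. Of these 180, 84 had changes above 0 and 8 were higher at an unadjusted p below 0.05 (limma). Second spots that rose, found in 5 genes, are left out of the 180, so this count understates how far clones agree. LDHB gives an example, since its other spot had a change of -0.14 (SE 0.30), and of the 4 spots of GLUL, the astrocyte enzyme that makes glutamine, the brightest rose by 1.01 while the others had changes of 0.05, 0.10 and -0.01. Over 1215 genes with more than 1 named spot, the changes of the first 2 spots had a Spearman correlation of 0.16 (as a description). The part of place and of the clone in the changes was not tested.

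In 5 genes more than 1 spot rose. SARS1, which encodes seryl-tRNA synthetase, rose in both of its spots, by 1.54 and 1.69. PPIL4, a cyclophilin, rose in both of its spots, by 1.30 and 0.72, and FIS1, a mitochondrial fission protein, by 1.06 and 0.98. RPL4 rose in 2 of 7 spots. When the spots of a gene were averaged before the fit, a setting chosen after seeing the data, 310 of 5545 genes rose and 38 fell, and among genes with more than 1 spot these numbers were 50 and 8. The 8 that fell were TMSB10 (-0.75), RPS24 (-0.76), RPS26 (-0.72), RPL35 (-0.63), RPLP2 (-0.60), YWHAE (-0.67), MAT2A (-0.43) and KCTD15 (-0.48), of which 4 encode ribosomal proteins.

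Cytoplasmic ribosomal protein genes were lower at 60 min as a group than the other genes, although no single spot of them passed the test on the lower side. The median over 62 genes of the mean change in the 4 pairs was -0.35 against -0.01 over all named genes. Of the 62, 54 had a mean change below 0, against 2863 of all 5545 genes. Of their 152 spots, 48 were lower and 10 higher at an unadjusted p below 0.05 (limma), against 538 lower and 758 higher of all 7300 named spots. Spots of the same gene are counted singly here. At the adjusted threshold 0 were lower and 4 rose (2.63%, against 3.60% of all named spots), namely 2 spots of RPL4 (1.32 and 1.09), 1 of RPL13 (1.10) and 1 of RPL9 (0.68). The median was -0.70 in the Block pair, -0.26 in the Block + ActD pair, -0.27 in the BiC/4AP pair and -0.10 in the BiC/4AP + ActD pair. RPL38 (-0.83), RPS20 (-0.77), RPL35A (-0.76) and RPS24 (-0.76) had the lowest means, and in these 4 genes the BiC/4AP + ActD pair lay between -0.11 and 0.13 while the other 3 pairs lay at -0.86 or below.

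The distance of this group from other spots differed between intensity ranges. From a mean log2 intensity of 5 to 6 the median change was 0.04 for 6 ribosomal protein spots and 0.01 for 2335 other spots, from 6 to 7 it was -0.18 for 10 against 0.00 for 2135, and from 7 to 8 it was -0.07 for 31 against -0.02 for 1218. From a mean log2 intensity of 8 to 9 the median change was -0.36 for 63 ribosomal protein spots and -0.06 for 628 other spots, and from 9 to 10 it was -0.55 for 28 against -0.02 for 291. Above 10 it was -0.01 for 14 ribosomal protein spots and -0.20 for 541 others. Among the spots above 10, the median shift was -0.20 with z-scores and 0.20 with median centring alone, which leaves the wider spread of the 60 min arrays in place, so the sign for very bright spots depends on the scaling. The median over the 152 ribosomal protein spots stayed below 0 in each of 6 scalings, between -0.34 and -0.17.

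**Figure D3:**
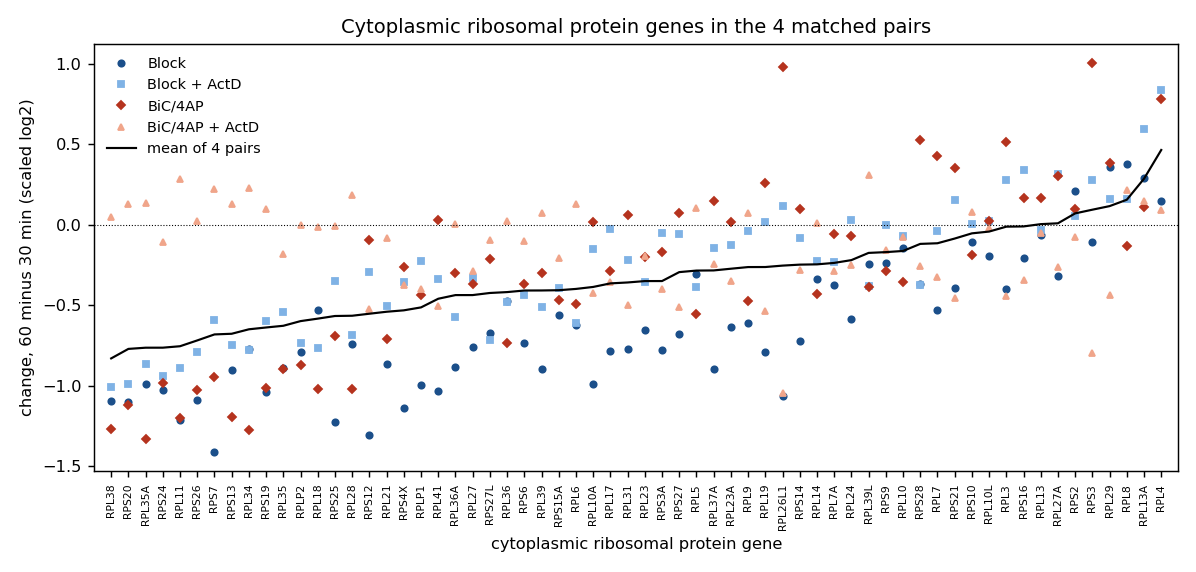
Change from 30 to 60 min (scaled log2) of 62 cytoplasmic ribosomal protein genes, ordered by the mean of 4 pairs (line), with 1 point per matched pair. Of the genes, 54 have a mean below 0, and at the left the BiC/4AP + ActD pair lies near 0 while the other pairs lie lower.

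Genes spotted many times gave a check across clones, and those named here were picked after their values were seen. Of 93 genes with at least 4 named spots, 15 had every spot below 0, 6 had every spot above 0 and 72 had both signs. ACTG1, a cytoplasmic actin, was below 0 in 9 of 9 spots with a median of -0.72, and ACTB, the other one, in 6 of 6 with a median of -0.53. EEF1A1, which brings tRNA to the ribosome, was below 0 in 9 of 9 (median -0.50), EEF1G, of the same elongation factor, in 8 of 8 (-0.46), RPS3A in 8 of 8 (-0.35), PPIA, cyclophilin A, in 5 of 5 (-0.48), and CFL1, which severs actin filaments, in 4 of 4 (-0.34). None of these spots passed the limma threshold, the smallest adjusted p being 0.129 for ACTG1, 0.145 for ACTB, 0.159 for EEF1A1 and 0.115 for EEF1G. In the BiC/4AP + ActD pair the median was 0.33 for ACTG1 and 0.14 for ACTB, against -1.69 and -0.61 in the BiC/4AP pair.

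On the other side, TUBA1B, an alpha tubulin, was above 0 in 12 of 13 spots with a median of 0.24, TUBA1C in 5 of 5 (0.25), and KEAP1, the sensor of oxidative stress, in 5 of 5 (0.37). None of these spots passed either. With other scalings the medians kept their sign, between -0.76 and -0.39 for the 2 actins together, between -0.58 and -0.26 for EEF1A1 and between 0.15 and 0.32 for TUBA1B, while single spots of TUBA1B, KEAP1, EEF1G, RPS3A and the actins crossed 0 in some of them. TUBA1B has 1 very bright spot, at a mean log2 intensity of 12.8, and it was the 1 below 0 (-0.45). The pairs of the tubulins moved in opposite directions. Over the spots of TUBA1B the median was -0.22 in Block, 0.49 in Block + ActD, 0.70 in BiC/4AP and -0.08 in BiC/4AP + ActD. For TUBA1C it was -0.35, 0.63, 0.88 and -0.18 in that order, so neither gene rose in every pair. The shifts in median raw intensity of the arrays, given below, had the same order of signs. KEAP1 had a median above 0 in each pair.

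**Figure D4:**
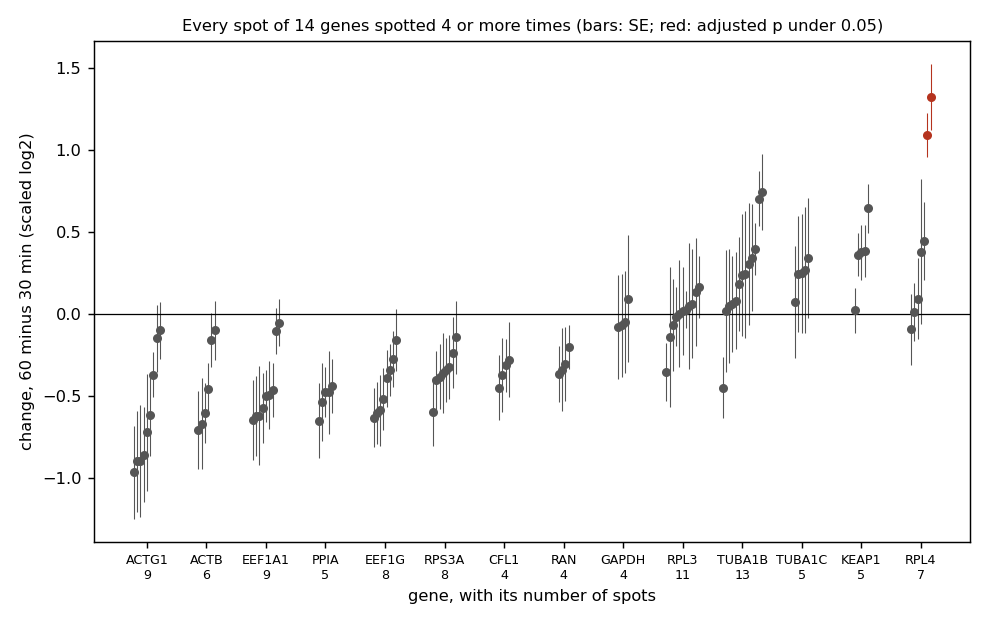
Change from 30 to 60 min (scaled log2, bars show the SE) of every named spot of 14 genes spotted at least 4 times, with spots ordered by value within a gene and red marking an adjusted p below 0.05. All spots of ACTG1, ACTB, EEF1A1, PPIA, EEF1G, RPS3A, CFL1 and RAN lie below 0, and 2 spots of RPL4 stand at 1.09 and 1.32 above the other 5.

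Some abundant transcripts had a mean near 0 because their pairs moved in opposite directions. The 4 spots of GAPDH, the glycolytic enzyme often used as a reference, had mean changes between -0.08 and 0.09. The first of them read 145, 115, 70.7 and 266 at 30 min and 69.0, 226, 186 and 189 at 60 min, so its change was -0.88 in Block, 0.56 in Block + ActD, 1.06 in BiC/4AP and -0.36 in BiC/4AP + ActD. Metallothioneins and ferritins, which bind metal ions and store iron, had the same order of signs, with list medians of -0.30, 0.60, 1.10 and -0.54 over 7 genes. The median of the gene means over the 4 pairs was 0.16. None of their 14 spots passed the limma test (1 higher and 0 lower at an unadjusted p below 0.05). With 3.60% of all named spots rising, 14 spots are too few to read a count of 0. MT1X, a metallothionein, read 375, 339, 165 and 744 at 30 min and 172, 836, 549 and 372 at 60 min, with a mean change of 0.01 (SE 0.47). In GAPDH and MT1X the highest array at 30 min was BiC/4AP + ActD, the lowest was BiC/4AP, and at 60 min Block was the lowest. The same held for the median raw intensity of the arrays. From 30 to 60 min it went from 63.2 to 52.6 in Block and from 62.35 to 80.9 in Block + ActD. In BiC/4AP it went from 57.3 to 69.6 and in BiC/4AP + ActD from 74.1 to 63.1, the same order of signs. The part of array brightness in these changes was not tested.

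Lists of genes known to respond to neuronal activity are read against the 3.60% of all named spots that rose. Of 20 spots of 14 immediate early transcription factor genes, 1 rose (5%), and the list median was 0.16 (Block 0.05, Block + ActD 0.17, BiC/4AP 0.14, BiC/4AP + ActD 0.21). That spot was of JUN, a partner of Fos proteins, which read 106, 93.9, 99.2 and 132 at 30 min and 150, 184, 172 and 178 at 60 min, a change of 0.56 (SE 0.11, limma adjusted p = 0.0318). The other JUN spot had a change of 0.07 (SE 0.27), with pairs from -0.59 to 1.00. IER2 read 560, 538, 595 and 761 at 30 min and 1123, 1428, 1362 and 1039 at 60 min, a change of 0.69 (SE 0.17, adjusted p = 0.0693), and FOS had a change of 0.11 (SE 0.27, adjusted p = 0.905). The 60 min arrays lay above the 30 min arrays in IER2 in raw intensity, yet the spot did not pass. The 3 spots of JUNB had changes of 0.85, 0.44 and 0.21, and as a gene mean JUNB rose by 0.50 (SE 0.13, adjusted p = 0.0376). At an unadjusted p below 0.05, 5 of the 20 spots were higher and 2 lower (limma), against 758 and 538 of all 7300 named spots. On the lower side KLF6 had a change of -0.47 (SE 0.16, adjusted p = 0.181). The 2 brightest members, IER3 (-0.40, adjusted p = 0.193) and FOSL2 (-0.16), lay above a mean log2 intensity of 10, where the sign depends on the scaling.

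None of 22 spots of 16 activity-induced effector genes passed (limma), 1 being higher and 1 lower at an unadjusted p below 0.05, and at 3.60% of all named spots a list of this size is too small to read a count of 0. ARC, the synaptic plasticity gene, was near the floor and read 50.9, 29.2, 30.6 and 39.1 at 30 min and 21.0, 32.7, 23.6 and 32.0 at 60 min (change -0.38, SE 0.18, adjusted p = 0.327). DUSP4, a phosphatase of MAP kinases, had a change of 0.43 and CDKN1A, an inhibitor of the cell cycle, one of -0.52, and neither passed. Of 47 spots of short-lived transcripts 2 rose, JUN and DDIT3, a transcription factor of the stress response, which read 108, 83.2, 93.4 and 125 at 30 min and 244, 277, 230 and 177 at 60 min (change 1.04, SE 0.15, adjusted p = 0.00747). ATF4, which acts upstream of DDIT3, rose in 1 of 4 spots by 0.77 (adjusted p = 0.00900) and had changes of -0.24, 0.11 and -0.01 in the others. Within the list the median was 0.05, close to that of all genes.

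**Figure D5:**
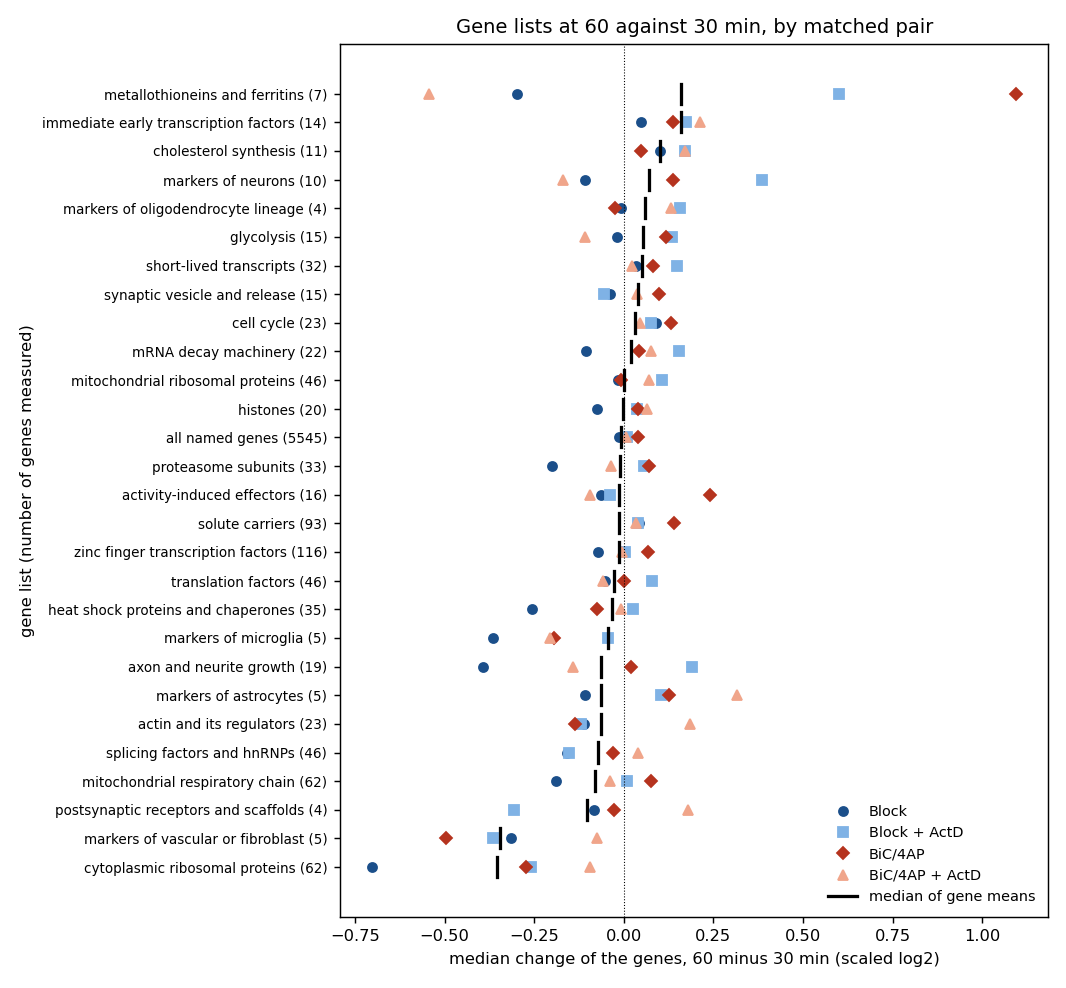
Median change from 30 to 60 min (scaled log2) of the genes in 27 lists and of all named genes, with 1 point per matched pair and a black bar for the median over genes of each gene's mean change in the 4 pairs. Numbers in parentheses count genes, the bar of cytoplasmic ribosomal proteins stands at -0.35, and the points of metallothioneins and ferritins spread from -0.54 to 1.10.

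Spots that rose were spread over most of the lists, at shares read against 3.60% of all named spots. Among mitochondrial ribosomal proteins 6 of 57 spots rose (MRPL15 by 1.52, MRPL12 by 1.25, MRPL30 by 1.01, MRPL4 by 0.95, MRPL27 by 0.71 and MRPL38 by 0.58), while the median of the list was 0.00. Among proteasome subunits 4 of 61 rose, with PSMB4 at 1.75 and PSMD3 at 1.16, and among respiratory chain genes 3 of 99, with NDUFS1 at 1.71. PSMB4 rose in 1 of 8 spots, with a median of 0.06, and averaged over its 3 spots PSMD3 had a change of 0.47. Of 26 histone spots 3 rose (H2AZ2, H4C11 and H2AC25), of 40 spots of glycolysis 3 (LDHB, ENO1 and ALDOA), of 128 spots of solute carriers 8 and of 139 spots of zinc finger factors 5. ENO1 rose in 1 of 4 spots (median 0.17) and ALDOA in 1 of 6 (median -0.07).

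Neuronal lists showed single spots of the same kind. SNCB, a synuclein of nerve terminals, rose by 0.75 (SE 0.12, limma adjusted p = 0.0117), NRGN, a calmodulin-binding protein of dendritic spines, by 0.65 (SE 0.14, adjusted p = 0.0353), RTN4, an inhibitor of neurite growth, by 0.91 (SE 0.17, adjusted p = 0.0243) and CRMP1, which acts in axon guidance, by 0.88 (SE 0.20, adjusted p = 0.0482). RTN4 rose in 1 of 4 spots, with 2 of them above 0, 2 below 0 and a median of 0.03. STMN2, a regulator of microtubules in growing axons, had a change of -0.56 and HOMER1, a scaffold of the postsynapse, one of -0.03, and neither passed. None of 14 spots of neuronal markers passed (limma, 2 higher and 1 lower at an unadjusted p below 0.05). At 3.60% of all named spots, marker lists of this size are too small to read a count of 0. The list median was 0.07 for neurons, -0.06 for astrocytes, 0.06 for the oligodendrocyte lineage and -0.04 for microglia. Vascular or fibroblast markers had a median of -0.34 over 5 genes, and none of their 7 spots passed (limma, 1 higher and 2 lower at an unadjusted p below 0.05). TAGLN had changes of 0.50 and 0.16, SPARC had changes of -0.41 and -0.45, LUM had one of -0.24, and for FN1 (-0.34) and ACTA2 (-0.45) the mean log2 intensity was 12.5 and 12.0, in the range where the sign depends on the scaling.

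Translation factors and RNA binding proteins held values on both sides. Of 89 translation factor spots 22 were lower and 5 higher at an unadjusted p below 0.05 (limma). Among all 7300 named spots 538 were lower and 758 higher at that level. Repeat spots of a gene enter such a count, and EEF1A1 had 6 lower spots and EEF1G 5. The median over genes was -0.03. The 3 spots that passed all rose: EIF4EBP1, which restrains cap-dependent translation, by 1.59, EIF4E2, a cap-binding protein, by 1.26, and EIF5A by 0.58. EIF4E2 rose in 1 of 4 spots, with 2 above 0, 2 below 0 and a median of 0.01. LSM1, which takes part in mRNA decapping, was the 1 spot of 28 of the mRNA decay machinery to rise (1.26, SE 0.21, adjusted p = 0.0139). Splicing factors had 2 spots of 80 that rose, U2AF2 by 0.93 and HNRNPA0 by 0.67, beside HNRNPH1 at -0.84 (adjusted p = 0.160). None of 48 chaperone spots passed (limma, 0 higher and 5 lower at an unadjusted p below 0.05). The shares that rose were 3.37% of translation factor spots, 3.57% of mRNA decay spots and 2.5% of splicing spots. Of all named spots 3.60% rose, so these shares lay near or below it, and 48 spots are too few to read a count of 0.

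Split by actinomycin D, with 2 pairs on each side, no named spot passed in either state (limma), but this call depended on the setting. With the 10th percentile added, with only named spots fitted and with an intensity trend and robust variances, 270, 224 and 243 passed without ActD, and 162, 131 and 159 with it. Over all 9600 spots the shares called were 0% without ActD in either direction, and 0.0104% higher and 0% lower with it. At an unadjusted p below 0.05 there were 649 higher and 601 lower named spots without ActD, and 530 and 379 with it. Without ActD the strongest on the higher side were STX10 (1.46), UBE2J1 (1.29), HSPBP1 (1.46) and PSMD3 (1.26), and on the lower side RPL35 (-0.94), RPL9 (-0.95), YWHAE (-1.04) and MCRIP2 (-1.06), each with an adjusted p of 0.131. With ActD they were CTCF (1.81), RELT (2.11), UBE2J1 (1.35) and PPIL4 (1.38), each at 0.163, and GPBP1 (-0.82), IFFO1 (-0.79), ZMYM4 (-0.73) and TBC1D22A (-0.68), at 0.163 to 0.168.

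The difference of the change between the ActD states was itself tested, and no named spot passed (0.0104% of all spots higher and 0% lower, and 140 higher and 342 lower among the named at an unadjusted p below 0.05). SMU1, a splicing factor, had the strongest evidence among the named on the higher side, with a difference of 2.17 (SE 0.35, adjusted p = 0.520). It read 64.3, 13.2, 28.8 and 13.9 at 30 min and 19.9, 31.7, 22.2 and 29.7 at 60 min, so it was higher at 30 min in both pairs without ActD and at 60 min in both pairs with it. The spot was near the floor, and its 30 min readings with ActD lay below the 10th percentile of their arrays (16.1 in Block + ActD and 19.3 in BiC/4AP + ActD). GPBP1 had a difference of -1.24 (SE 0.19, adjusted p = 0.484). The 95% interval of this difference reached 0.68 to either side for the median spot.

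Split by activity, 120 named spots rose in Block and none fell, against 1.32% and 0.0208% of all spots, and none passed with BiC/4AP (0% in either direction), where 49 passed with the 10th percentile added and 21 with only named spots fitted. With BiC/4AP 291 named spots were higher and 61 lower at an unadjusted p below 0.05. In Block the strongest were KANSL2 (1.95, SE 0.17), PPCDC (2.25, SE 0.21), LDHB (1.78, SE 0.18) and RTCB, each with a limma adjusted p of 0.0180. With BiC/4AP the first 3 of these spots had changes of 1.21, 1.44 and 1.17, and RTCB one of 1.26, at an adjusted p of 0.264. PPCDC read 246, 235, 319 and 345 at 30 min and 1346, 1556, 1225 and 953 at 60 min. Without any 1 of the 4 pairs the count in Block was 0 to 2, without the 5 min arrays it was 0, and other settings moved it between 55 and 277.

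A larger change in Block was thus not shown, since the difference between the states was tested and no spot passed, 32 being higher and 90 lower at an unadjusted p below 0.05 (0% of all spots in either direction, smallest adjusted p 1.00). NSMF, which carries signals from synapses to the nucleus, had a difference of -1.35 but read exactly 10 on 5 of the 8 arrays. The 95% interval of the difference reached 0.77 to either side for the median spot. Among the 263 spots that rose over all pairs, the median change was 1.47 in the Block pair, 1.17 in Block + ActD, 0.72 in BiC/4AP and 0.95 in BiC/4AP + ActD.

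The pairs did not move alike over all spots. Across the 7300 named spots the changes of 2 pairs had Pearson correlations of 0.46 (Block with Block + ActD), 0.36 (Block with BiC/4AP), 0.47 (Block with BiC/4AP + ActD), 0.51 (Block + ActD with BiC/4AP), 0.28 (Block + ActD with BiC/4AP + ActD) and -0.02 (BiC/4AP with BiC/4AP + ActD), given as a description, since the spots of an array share its hybridisation and its scaling. The SD of the change was 0.57 in the Block pair and 0.42 to 0.45 in the others, and 330 changes lay above 1 and 192 below -1 there. The numbers were 125 and 122 in the BiC/4AP pair, 251 and 26 in Block + ActD and 171 and 24 in BiC/4AP + ActD. The 5 brightest spots, IFITM3, NDUFB6, SUB1, ZNF706 and ELOF1, had changes from -0.79 to -0.50 and did not pass. Their change lay between -0.14 and 0.13 with median centring alone and between -0.13 and 0.19 after quantile normalization, so no direction is given for them.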

How the data were processed

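RNA of the 12 cultures was measured on 12 nylon membranes, 1 per condition, with no replicate of a condition. The raw spot intensities deposited by the authors, read from phosphorimager scans, were not scaled between arrays; how background was treated is not given in the sources used here. Rat cDNA was hybridised to human clones, so the match between the species enters every intensity. The value table of the series held the same values (115200 of 115200 identical), and no other column of sample values was present (0).

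Log2 intensities were set to z-scores within each array and multiplied by the mean SD of the arrays (2.15). Changes were tested with limma 3.58.1 in R 4.3.3 (lmFit and eBayes, all 12 arrays and 9600 spots, matched set as a block, time as a factor), with Benjamini-Hochberg adjustment over all spots. The p-values measure the spread between matched sets within these hybridisations, and an exact sign test of 4 pairs cannot go below 0.125. The tests were tried on simulated data first. Figures were drawn with matplotlib 3.10.9.

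Names came from the platform annotation: 8496 spots had 1 symbol, 21 had several and 1083 were unlisted. Of the 5545 genes, 5097 have a rat RefSeq symbol. Spots were named by smallest p (15 in each direction over the 4 pairs, 4 in the other comparisons), by brightness, and within each list by brightness and smallest p. Genes outside this rule, such as SLU7, IER2, JUNB, ATF4, MT1X, GAPDH and those with many clones, were chosen after their values were seen. Members and lists were chosen with earlier results of these data known. The labels and the methods differ on the RNA amount and on what the times mean. Alternatives covered the scaling, offset, filter, arrays fitted, variance model and the pairs left out.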

Additional observations from a re-analysis of the deposited data

Results flagged for a closer look

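Among groups of 4 arrays or pairs, a single value stood apart from the others in 7 cases, given as its gap to the nearest value over the whole range of the group, past Dixon's 95% limit for 4 values. By chance about 1 in 20 groups passes that limit. The number of groups looked at is not given, so the 7 cases cannot be set against that share. USP3 was high on the Block array at 60 min (0.842) and PPP2R5D was high on the same array (0.837). ACP2 stood apart on the Block + ActD array at 30 min (0.88) and RPL36 on the BiC/4AP + ActD array at 30 min (0.936). Among list medians, the BiC/4AP pair stood apart for activity-induced effectors (0.833) and solute carriers (0.926), and the BiC/4AP + ActD pair for actin and its regulators (0.924).

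In 3 of 27 lists, split by ActD or by activity, the pairs of one state had medians on the other side of 0 from those of the other state. These differences were not tested, and some medians lay close to 0. The oligodendrocyte list had -0.008 in Block and the mitochondrial ribosomal list -0.008 in BiC/4AP. The difference was -0.102 for mitochondrial ribosomal proteins without against with ActD, -0.161 for oligodendrocyte markers without against with ActD, and -0.115 for the synaptic vesicle list in Block against BiC/4AP. Of the unlisted spots at the last place of each block, 3 (0.78%) passed the limma threshold, all lower at 60 min. Over all 9600 spots on the array, 0.115% were called lower and 3.03% higher.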

How the results depend on the processing

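With 1 array per condition, the array run and the time cannot be told apart, and clones of 1 gene often differed. No paired analysis was possible because every label carries the same replicate number, as far as pairing by replicate is concerned. The pairs used throughout are arrays matched by activity and ActD. Over the 4 pairs, 265 named spots passed (263 higher, 2 lower). The count was 107 (0 lower) with only the 8 arrays of 30 and 60 min, 445 (51 lower) without the block for the matched set, 438 (7 lower) with median centring, 479 (63 lower) with the 10th percentile added, 453 (58 lower) with only named spots above the minimum and 412 (37 lower) with an intensity trend and robust variances. Leaving out 1 pair gave 0 to 213. The other settings, 2 of them chosen after seeing the data (gene means and unlisted spots left out), gave 214 to 348. With the 10th percentile added, only named spots, and the trend with robust variances, the count without ActD went from 0 to 270, 224 and 243, and with ActD from 0 to 162, 131 and 159. Leaving out 1 pair gave 0 to 1 in either state. In Block the 120 became 0 with the 8 arrays alone, 188 with median centring, 55 with block medians subtracted, 277 with the 10th percentile added, 266 with only named spots and 244 with the trend, and 0 to 2 without 1 pair. With BiC/4AP the 0 became 49 with the 10th percentile added and 21 with only named spots. The cause of these shifts was not tested. The 86 spots beyond a z-fold of 1.4 became 0 by plain difference of z-scores, 50 after quantile normalization, 177 with the 10th percentile added, 12 at a limit of 2 and 87 to 146 without 1 pair, highest without the BiC/4AP pair. Lists with a median below -0.1 numbered 3, against 6 with the brightest clone of each gene and 3 to 6 without 1 pair. Of the values of named genes under the alternatives, 870 kept their direction and side of the threshold, 75 lost and 127 gained it, and none changed direction.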
